A study of Mus musculus with 9 samples.

Results

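The genes described here are 10 listed pro-apoptotic members of the Bcl2 family: the effectors Bax and Bak1, and the BH3-only genes Bcl2l11 (Bim), Bid, Bbc3 (Puma), Bad, Pmaip1 (Noxa), Bmf, Bik and Hrk. They were taken by symbol from 53458 genes, after the deposited transcript values had been summed to genes, and all 10 were among the 24133 genes with enough counts to be tested. The RNA came from cDC1 (conventional dendritic cells of type 1), a kind of dendritic cell that presents captured antigen to cytotoxic T cells, taken from mouse lymph nodes beside the pancreas. The 9 libraries formed 3 groups of 3 by the stage of the pancreas that the node drained: Healthy, PanIN (a precursor lesion of pancreatic cancer) and Tumor. KPC, named in the title of the series, is a mouse model of pancreatic cancer. The sources used here give no genotype, age or promoter for the animals, and do not say whether Healthy nodes came from KPC mice or whether a library is 1 animal or a pool. P-values therefore measure only how these libraries vary, part of which may be technical.

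The Bcl2 family sets whether a cell starts death through its mitochondria. Bax and Bak1 form pores in the outer mitochondrial membrane, anti-apoptotic members such as Mcl1, Bcl2l1 and the Bcl2a1 genes hold them in check, and BH3-only proteins either block the anti-apoptotic members or activate Bax and Bak1 directly. In mouse dendritic cells, Bcl2l11 is known as a gene that limits how long the cells live.

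The feature these proteins share is the BH3 helix, and the stretch of coding sequence at its centre is shown for 9 of the genes because it shows where Bax, Bak1 and the BH3-only genes are alike and which annotated transcripts can carry it. Capitals mark the 18 bases that code for a leucine, 3 residues of any kind, a small residue (glycine, alanine or serine) and an aspartate, with 9 bases on each side in lower case. The coordinates are those of the capitals on GRCm38 (mm10), and the sequences are from the GENCODE M21 transcripts, printed 5′ to 3′ on the coding strand.
Bax, chr7:45466006-45466023, minus strand, exon 3 of Bax-201: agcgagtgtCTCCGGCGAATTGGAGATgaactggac
Bak1, chr17:27022540-27022557, minus strand, exon 4 of Bak1-202: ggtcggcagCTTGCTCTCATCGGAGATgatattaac
Bcl2l11, chr2:128147150-128147167, plus strand, exon 3 of Bcl2l11-205: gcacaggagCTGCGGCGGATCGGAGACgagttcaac
Bid, chr6:120897298-120897315, minus strand, exon 4 of Bid-201: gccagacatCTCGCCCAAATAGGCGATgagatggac
Bbc3, chr7:16313773-16313790, plus strand, exon 3 of Bbc3-201: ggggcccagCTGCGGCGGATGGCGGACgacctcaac
Bad, chr19:6950792-6950809, plus strand, exon 3 of Bad-202: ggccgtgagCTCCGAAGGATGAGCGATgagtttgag
Bmf, chr2:118545109-118545126, minus strand, exon 4 of Bmf-201: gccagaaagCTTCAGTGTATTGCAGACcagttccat
Bik, chr15:83543084-83543101, plus strand, exon 3 of Bik-202: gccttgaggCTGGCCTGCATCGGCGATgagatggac
Hrk, chr5:118169891-118169908, plus strand, exon 1 of Hrk-201: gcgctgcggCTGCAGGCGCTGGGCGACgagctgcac

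The small residue before the aspartate was coded as glycine in 6 of the 9 genes, as alanine in Bbc3 and Bmf and as serine in Bad. Among the 36 pairs of these genes, Bcl2l11 and Bbc3 shared the most of the 18 bases, 15, and the median pair shared 10. The pattern is short: 33.7% of 21901 protein-coding genes hold it somewhere in their longest coding sequence, so a match is a description of these letters and not evidence of a BH3 helix. Bak1, Bad and Bik carried it in every annotated transcript. The coding transcripts Bax-204, Bbc3-202, Bbc3-204, Bcl2l11-202 and Bid-203 did not, nor did any transcript without a coding sequence.

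Libraries held 32150281 to 68934430 estimated counts, and no pair of libraries differed by as little as sampling noise: the chi-square per degree of freedom over genes was at least 23.3, where 1 would be noise alone. That lowest value was between Healthy 1 and PanIN 1, which differ in stage and share the title code described below. The other pairs with that code had 67.5 and 105. Pairs of the same stage had 58.8 (PanIN 2 and PanIN 3) to 472 (Healthy 2 and Healthy 3). The Healthy pairs had 144, 247 and 472. The defining cDC1 genes were abundant throughout, with Xcr1 between 249 and 1081 CPM and Irf8 between 1025 and 3330 CPM (counts per 1000000, scaled by TMM). The summed CPM of 8 cDC1 genes, these 2 among them, was 11641 in Healthy 2, against 3172 to 8071 in the other libraries. Some libraries stood apart. In Healthy 2 the summed CPM of 6 mature dendritic cell genes, Ccr7 and Fscn1 among them, was 474, against 2677 to 11991 in the other 8, and in Healthy 3 the 7SL RNA took 1.78% of counts, against 0.26% to 0.76%. Healthy 3 also held the lowest CPM of 6 of the 10 genes, where 21.7% of all tested genes had their lowest value there. Summed markers of other cells were highest in Tumor 1 for T cells (190.0 CPM), plasma cells (218 CPM) and epithelium (85.7 CPM, against at most 9.55 in the other 8), and in PanIN 2 for B cells (192 CPM, against 19.5 to 57.3). In bulk RNA, fewer cells that express a gene and less of its RNA per cell cannot be told apart. A group of 3 libraries, 1 of each stage (Healthy 1, PanIN 1 and Tumor 1), share a code in their titles, whose meaning the labels do not give. All of them had more T cell marker RNA (134, 120 and 190.0 CPM) than the other libraries (24.0 to 74.6 CPM). The same held for NK cell markers, at 31.3, 36.6 and 26.7 CPM against 1.28 to 18.5 CPM.

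In Tumor against Healthy, Bcl2l11 and Pmaip1 were higher in every Tumor library than in every Healthy library, by 1.55 and 1.73 times in the fit, and both effectors had positive fold changes of 1.44 (Bax) and 1.39 (Bak1). Hrk was at 0.23 of its Healthy level, a log2 fold change of -2.10 that became -0.88 without Healthy 3. None of the 10 genes passed: the quasi-likelihood test of edgeR, adjusted over all tested genes by Benjamini-Hochberg at 0.05, called 0 of 10, and 0.0249% of all genes (6 of 24133). At an unadjusted p under 0.05 there were 3 of the 10, where 17.8% of all genes had such a p. Of these, Pmaip1 and Bcl2l11 were higher, as were 6.82% of all genes at such a p, and Hrk was lower, as were 11% of all genes at such a p. In CPM the groups did not overlap for 2 of the 10, where they did not overlap for 18.1% of all genes, and both were higher in Tumor, where 9.02% of all genes were so arranged. The log2 fold change was positive in 9 of 10, with a median of 0.48, where it was positive in 43.5% of all genes and their median was -0.11. Mature dendritic cell genes moved the same way between these groups: 6 of 6 had positive fold changes, with a median log2 value of 1.38, none was at 0 in any library, and their summed CPM was 6175 to 11991 in Tumor and 474 to 6018 in Healthy; their part in the values of the 10 genes was not tested. All 6 were positive also in PanIN against Healthy (median 0.56) and in Tumor against PanIN (median 0.74). Of the 8 cDC1 marker genes, 6 had negative fold changes in Tumor against Healthy (median log2 value -0.31). In PanIN against Healthy 5 of the 8 were positive (median 0.06), and in Tumor against PanIN 6 were negative (median -0.22). The part of these genes in the values of the 10 genes was not tested. DESeq2 called 0 of the 9 members to which it gave an adjusted p, where it called 9.42% of such genes; Hrk (DESeq2 adjusted p = 0.0515) and Pmaip1 (0.0607) came nearest.

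In PanIN against Healthy, Bcl2l11 and Pmaip1 had the largest positive fold changes, 1.59 and 1.64 times, while Bax, Bak1, Bbc3, Bid, Bad and Bmf had log2 fold changes between -0.20 and 0.16. The adjusted edgeR test called 0 of the 10 and 0% of all genes, and DESeq2 called 0 of the 10 and 0.866% of genes with an adjusted p. Bcl2l11 and Pmaip1 had an unadjusted p under 0.05, 2 of 10, where 10.5% of all genes had one and 4.82% had one and were higher. The CPM of the groups overlapped for all 10, where they did not overlap in 12.2% of all genes; in TPM, Bcl2l11 and Pmaip1 were higher in every PanIN library than in every Healthy library, 2 of 10, where 14.4% of all genes were so arranged in TPM, of 16.4% whose groups did not overlap. The fold change was positive in 7 of 10, with a median of 0.08, against 42.5% of all genes and a median of -0.10. This comparison and Tumor against Healthy use the same Healthy libraries, so their values are not independent.

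In Tumor against PanIN, Bbc3, Bax, Bak1 and Bad had more CPM in every Tumor library than in every PanIN library, and Hrk had less. That is 4 of 10 higher, where 8.33% of all genes were so arranged, and 1 of 10 lower, where 7.26% were, of 15.6% of all genes whose groups did not overlap. In TPM the groups of all 5 of these genes overlapped. The differences were small, with log2 fold changes of 0.36 to 0.48 for the 4 genes, and none of the 10 had an unadjusted p under 0.05, where 4.54% of all genes did. The fold change was positive in 8 of 10, with a median of 0.26, against 45.8% of all genes and a median of -0.05. The adjusted edgeR test called 0 of the 10 and 0.0124% of all genes, and DESeq2 called 0 of the 10 and 0.125% of genes with an adjusted p. For any difference among the 3 stages, the edgeR test called 0 of the 10 and 0.0207% of all genes, with Pmaip1 and Hrk at an unadjusted p under 0.05, where 13.4% of all genes had one. Some alternatives called members on that question: limma-voom called Bax and Bak1 and 13.5% of all genes, and edgeR without Healthy 2 called Hrk and 5.31% of all genes.

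**Figure D1:**
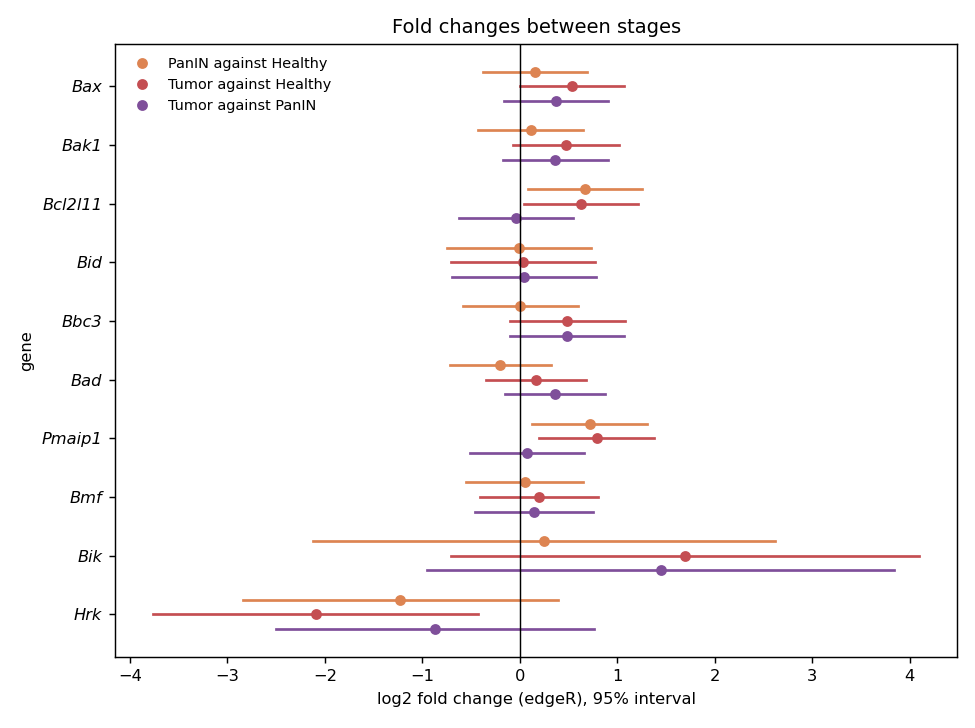
Log2 fold change (x axis) of each of the 10 genes (y axis) for the 3 pairs of stages (PanIN over Healthy, Tumor over Healthy, Tumor over PanIN), with the 95% interval of the edgeR fit over 9 libraries. Intervals of Bcl2l11 and Pmaip1 against Healthy and of Hrk in Tumor against Healthy leave out 0; those of Bik and Hrk are the widest.

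Compared with one another per length, in TPM (transcripts per 1000000), the effectors and Pmaip1 led. Bax averaged 223 ± 69.9 TPM over the 9 libraries (SD, n = 9), Bak1 61.0 ± 13.0 and Pmaip1 47.8 ± 15.9. A middle group followed, with Bad at 14.1 ± 2.39, Bid at 13.3 ± 4.64, Bcl2l11 at 9.75 ± 3.01, Bmf at 6.06 ± 3.04 and Bbc3 at 5.02 ± 1.87 TPM. Bik, at 0.600 ± 0.433, and Hrk, at 0.230 ± 0.229, were near the bottom. Ranges over the 9 libraries did not overlap between Bax and Bak1, between Pmaip1 and Bad, or between Bbc3 and Bik; every other pair of neighbours in this order overlapped. Among protein-coding genes these means lay between the 98.1 percentile (Bax) and the 12.7 percentile (Hrk).

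**Figure D2:**
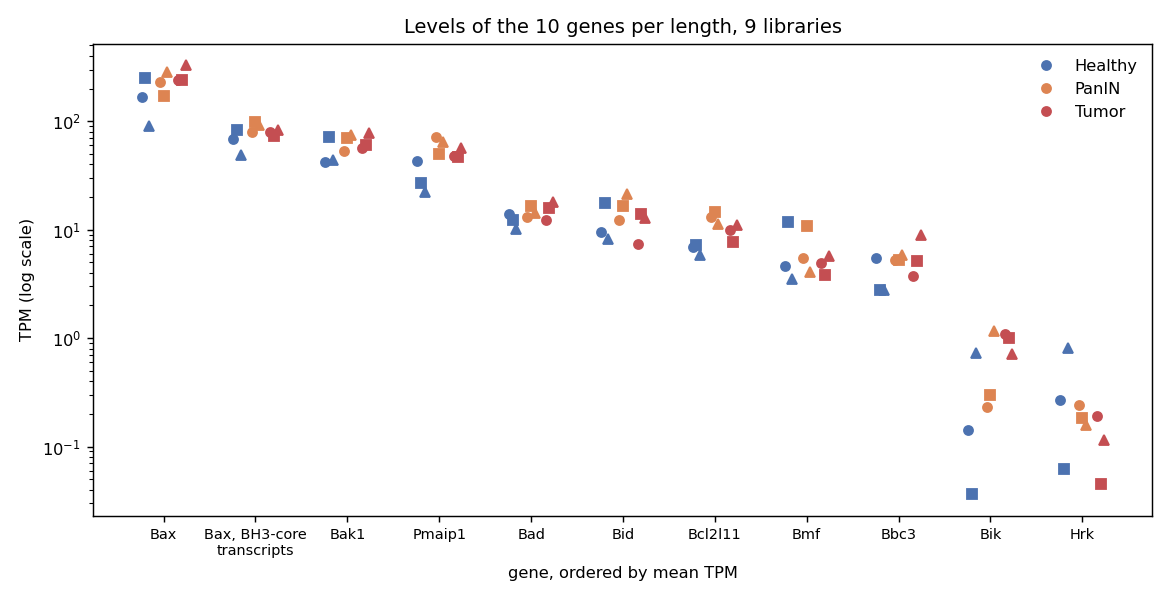
TPM (y axis, log scale) of the 10 genes in each of the 9 libraries, in order of their mean, with Bax also drawn for the transcripts that code the BH3 core alone. Circles, squares and triangles are libraries 1, 2 and 3 of a stage, and colours are stages; Bax stands at 91.2 to 327 TPM in all its transcripts together and at 48.6 to 97.9 TPM in those with the core.

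Bax (ENSMUSG00000003873, GRCm38 chromosome 7, 45461697 to 45466898, minus strand), a pore former that moves from the cytosol to mitochondria, had 62.1, 87.8 and 45.1 CPM in the Healthy libraries, 69.9, 68.0 and 79.2 CPM in the PanIN libraries and 102, 93.9 and 85.8 CPM in the Tumor libraries. All Tumor libraries lay above all PanIN libraries, while Healthy 2 reached the Tumor range. Tumor against Healthy gave a log2 fold change of 0.53 (95% interval -0.00 to 1.06, edgeR unadjusted p = 0.0514, adjusted p = 0.284), and Tumor against PanIN 0.37 (-0.16 to 0.91). Without Healthy 2 the Tumor against Healthy value was 0.81 and passed edgeR's test (adjusted p = 0.0308), and limma-voom with sample weights also called it (0.59, adjusted p = 0.0336). Without Healthy 3 it was 0.35 (edgeR adjusted p = 0.525). Without Healthy 2, 8.51% of all genes were called and 1.94% as higher; with limma-voom, 8.23% and 3.12%. Between the libraries that share a title code, 1 per stage, the difference in log2 CPM was 0.71, and among the other 6 libraries 0.51.

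Bak1 (ENSMUSG00000057789, chromosome 17, 27019810 to 27029009, minus strand), the other pore former, had 118, 179.5 and 95.1 CPM in Healthy, 128, 147 and 148 CPM in PanIN and 181, 189 and 174 CPM in Tumor. The order of libraries resembled that of Bax: Tumor lay above PanIN without overlap, and Healthy 2 stood in the Tumor range. Bak1 had a log2 fold change of 0.47 in Tumor against Healthy (-0.07 to 1.01, edgeR adjusted p = 0.348) and 0.36 in Tumor against PanIN (-0.18 to 0.90). Without Healthy 2 the Tumor against Healthy value was 0.77 (edgeR adjusted p = 0.0291), and with limma-voom it was 0.62 (adjusted p = 0.0260). Without Healthy 3 it was 0.31 (edgeR adjusted p = 0.582). The whole of Bak1 overlaps Ggnbp1 on the opposite strand (9200 bases), and the sources used here do not say whether reads were assigned by strand.

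Bcl2l11 (ENSMUSG00000027381, chromosome 2, 128126038 to 128162547, plus strand) codes Bim, a BH3-only protein that binds all anti-apoptotic members. It had 56.6, 61.4 and 35.2 CPM in Healthy, 95.8, 90.0 and 57.2 CPM in PanIN and 87.5, 67.4 and 82.0 CPM in Tumor. Every Tumor library lay above every Healthy library, and PanIN 3 alone of the PanIN libraries fell within the Healthy range. Its log2 fold change was 0.67 in PanIN against Healthy (0.08 to 1.25, edgeR unadjusted p = 0.0292, adjusted p = 0.457) and 0.63 in Tumor against Healthy (0.04 to 1.22, unadjusted p = 0.0373, adjusted p = 0.251). Tumor and PanIN differed by -0.04 (-0.62 to 0.55). Only limma-voom with sample weights, among the alternatives, called it, in PanIN against Healthy (0.59, adjusted p = 0.0462), where that tool called 14.1% of all genes and 5.78% as higher. Without Healthy 3, the library with its lowest level, the values were 0.48 for PanIN and 0.44 for Tumor against Healthy.

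On the TPM scale the 3 stages of Bcl2l11 did not overlap. In PanIN against Healthy the TPM of the groups did not overlap for 16.4% of all genes, and the share for the 3 stages together was not computed. Healthy had 6.93, 7.23 and 5.81 TPM, PanIN 13.0, 14.6 and 11.4 TPM and Tumor 9.99, 7.70 and 11.1 TPM, so that PanIN was highest and Tumor lay between. TPM moved the whole distribution: on log2(TPM + 1) the median of all genes was 0.11 between PanIN and Healthy and -0.16 between Tumor and PanIN, where the CPM fit gave -0.10 and -0.05. Relative to that median, the PanIN against Healthy difference of Bcl2l11 was 0.76 on the TPM scale and 0.77 in the CPM fit, and the Tumor against PanIN difference was -0.25 and 0.01. Relative to the median, the step between Tumor and PanIN therefore depended on the scale, and the size of the step between PanIN and Healthy did not. Whether the PanIN and Healthy libraries overlapped did depend on it, since they overlapped in CPM and not in TPM.

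Pmaip1 (ENSMUSG00000024521, chromosome 18, 66458533 to 66465565, plus strand) codes Noxa, a BH3-only protein that binds Mcl1, and it had the most RNA of the BH3-only genes. It had 163, 114 and 88.1 CPM in Healthy, 252, 153 and 194 CPM in PanIN and 221, 209 and 201 CPM in Tumor. The Tumor libraries lay close together and above all Healthy libraries, while PanIN 2 fell below Healthy 1. The log2 fold change was 0.79 in Tumor against Healthy (0.20 to 1.38, edgeR unadjusted p = 0.0129, adjusted p = 0.175) and 0.72 in PanIN against Healthy (0.13 to 1.31, unadjusted p = 0.0212, adjusted p = 0.457). On the TPM scale, relative to the median of all genes, the PanIN difference was 0.92, where the CPM fit gave 0.82. The Tumor and PanIN values were 0.36 and 0.29 when Healthy 2 and Healthy 3 were both left out, which leaves Healthy 1 alone as the healthy state, assumed to vary like the other groups. Limma-voom with sample weights gave 0.43 for Tumor (adjusted p = 0.172) and 0.15 for PanIN (adjusted p = 0.580), each against Healthy.

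**Figure D3:**
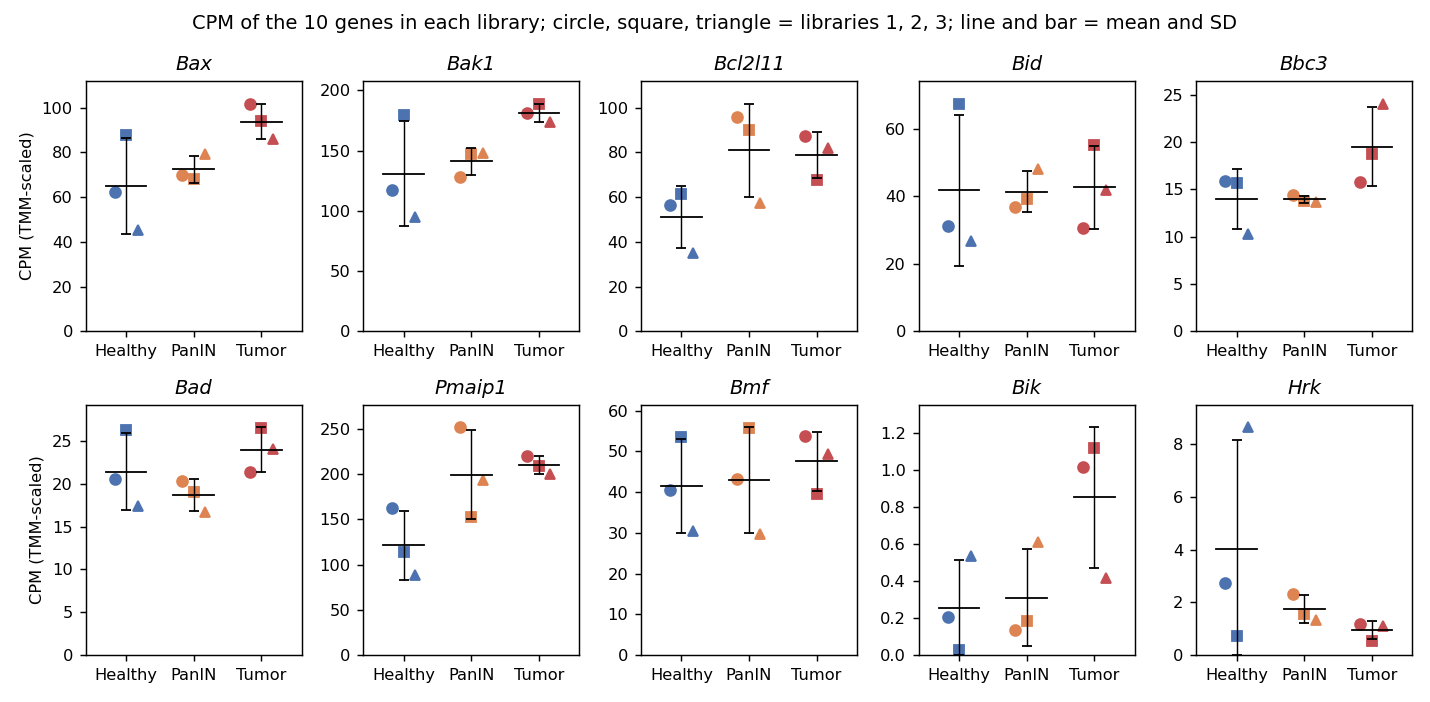
CPM (y axis, from 0, a scale for each gene) of the 10 genes in the Healthy, PanIN and Tumor libraries, with the mean and SD of each stage (bars end at 0 where the SD exceeds the mean). The 3 Tumor libraries of Bax, Bak1 and Pmaip1 sit close together, while the Healthy libraries of most genes are spread, with Healthy 2 high for Bid and Healthy 3 high for Hrk.

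Bbc3 (ENSMUSG00000002083, chromosome 7, 16308393 to 16318205, plus strand) codes Puma, a BH3-only protein best known as a p53 target. It had 15.9, 15.7 and 10.3 CPM in Healthy, 14.4, 13.8 and 13.7 CPM in PanIN and 15.8, 18.7 and 24.1 CPM in Tumor. The 3 PanIN libraries were almost equal, and all Tumor libraries lay above them. The log2 fold change was 0.48 in Tumor against PanIN (-0.11 to 1.07, edgeR unadjusted p = 0.0991) and 0.49 in Tumor against Healthy (-0.10 to 1.08, unadjusted p = 0.0970). Without Tumor 3, the library with the most Bbc3, these values were 0.30 and 0.31, and without Healthy 3 the Tumor against Healthy value was 0.32. It was uneven over the title code: between the libraries that share it, Tumor and Healthy differed by -0.01 in log2 CPM, and among the other 6 libraries by 0.74.

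Bid (ENSMUSG00000004446, chromosome 6, 120891930 to 120916853, minus strand) links death receptors to mitochondria once caspase-8 cleaves its protein. Its stage means were the most alike of the 10, with 41.7 ± 22.4 CPM in Healthy, 41.4 ± 5.97 CPM in PanIN and 42.6 ± 12.4 CPM in Tumor (SD, n = 3 each). The spread lay within stages: Healthy 2 had 67.4 CPM and the other Healthy libraries 31.1 and 26.6. The intervals of its log2 fold changes, -0.75 to 0.73 in PanIN and -0.71 to 0.77 in Tumor against Healthy, leave room for a difference in either direction. Casp8, which codes the protease that activates Bid, had 41.4 ± 15.2 CPM in Healthy, 51.1 ± 2.59 CPM in PanIN and 53.3 ± 2.44 CPM in Tumor (SD, n = 3 each).

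Bad (ENSMUSG00000024959, chromosome 19, 6941861 to 6951899, plus strand), which 14-3-3 proteins hold inactive in growing cells, varied least of the 10, from 16.6 to 26.5 CPM. It had 20.6, 26.3 and 17.4 CPM in Healthy, 20.3, 19.0 and 16.6 CPM in PanIN and 21.4, 26.5 and 24.1 CPM in Tumor. Tumor lay above PanIN, by a log2 fold change of 0.36 (-0.15 to 0.88), while Healthy overlapped both. Bmf (ENSMUSG00000040093, chromosome 2, 118528757 to 118549687, minus strand), a BH3-only protein held at the cytoskeleton by a dynein light chain, had 40.6, 53.6 and 30.5 CPM in Healthy, 43.3, 55.7 and 29.8 CPM in PanIN and 53.9, 39.6 and 49.3 CPM in Tumor. All 3 stages overlapped. Its log2 fold change was 0.20 in Tumor against Healthy (-0.41 to 0.80), 0.42 without Healthy 2 and 0.036 without Healthy 3.

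Bik and Hrk were close to the floor of the measurement. Bik (ENSMUSG00000016758, chromosome 15, 83526862 to 83544634, plus strand), a BH3-only protein found at the endoplasmic reticulum, had 7, 1 and 44 estimated counts in the Healthy libraries, 5, 7 and 27 in the PanIN libraries and 39, 47 and 15 in the Tumor libraries, that is at most 1.12 CPM. The groups overlapped, and the log2 fold change of 1.69 in Tumor against Healthy had an interval of -0.71 to 4.10. Of the 39 counts of Tumor 1, 29.7 were assigned to Bik-203, a transcript listed at 0 in the other 8 libraries. Tumor 1 also held the high epithelial marker sum, whose part in this value was not tested; without Tumor 1 the log2 fold change was 1.55, and without Healthy 3 it was 2.84.

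Hrk (ENSMUSG00000046607, chromosome 5, 118164648 to 118189478, plus strand), a BH3-only gene best known from neurons, had 2.73, 0.708 and 8.63 CPM in Healthy, 2.32, 1.55 and 1.31 CPM in PanIN and 1.17, 0.546 and 1.11 CPM in Tumor. Healthy 3 stood alone, with 708 of the counts where no other library had more than 94, and Healthy 2 lay within the Tumor range. The log2 fold change was -2.10 in Tumor against Healthy (-3.76 to -0.43, edgeR unadjusted p = 0.0178, adjusted p = 0.190) and -1.23 in PanIN against Healthy (-2.84 to 0.39). Without Healthy 3 these values were -0.88 and -0.00, and without Healthy 2 the Tumor value was -2.59 and passed edgeR's test (adjusted p = 0.0228), in a fit that called 6.57% of all genes lower. Healthy 3 is also the library with the most 7SL RNA, whose part in this value was not tested.

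**Figure D4:**
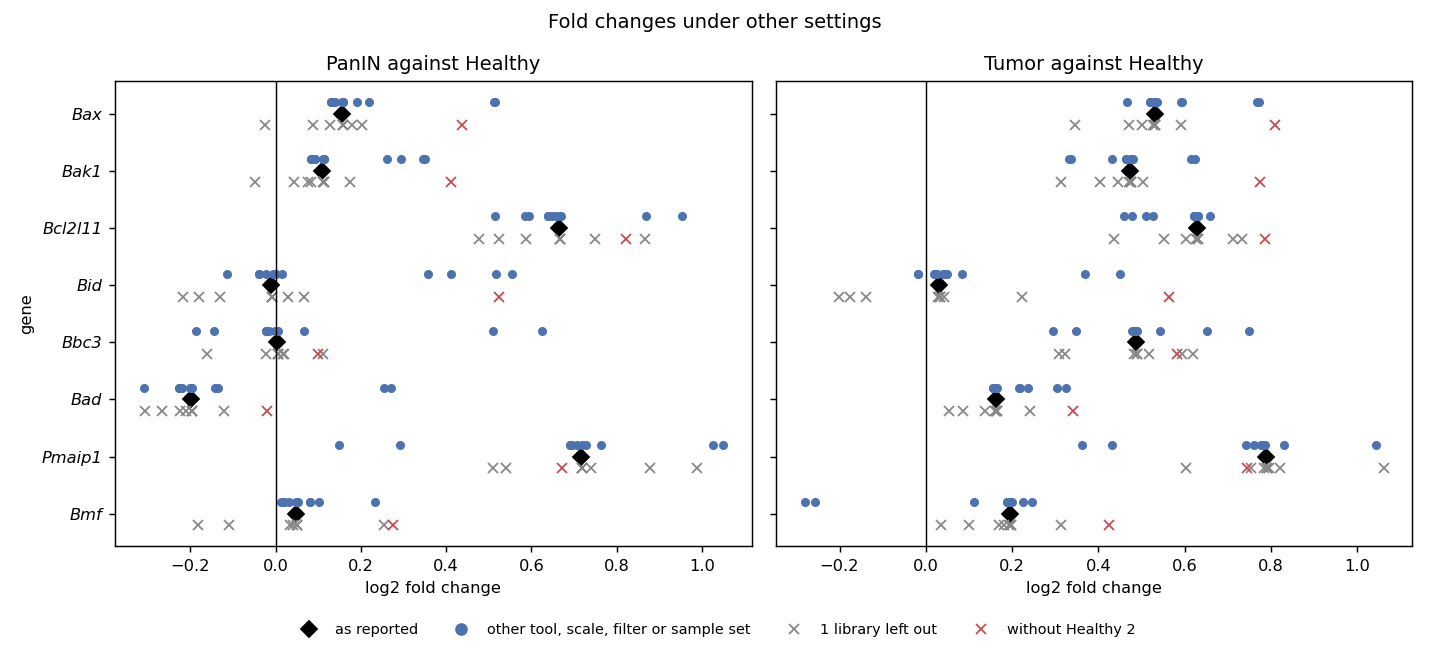
Log2 fold change (x axis) of the 8 genes with more than 10 CPM in every library (y axis) in PanIN against Healthy and Tumor against Healthy, as reported (diamond), under another tool, scale, filter or sample set (blue dots) and with 1 library left out (crosses, red without Healthy 2). In Tumor against Healthy every gene but Bid and Bmf stayed above 0 in each setting drawn, and Bid crossed 0 in both comparisons.

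Summed by role, the 8 BH3-only genes had 72.4 ± 15.7 TPM in Healthy, 119 ± 4.35 TPM in PanIN and 98.5 ± 14.1 TPM in Tumor (SD, n = 3 each). In CPM, which does not divide by length, the same genes summed to 296 ± 68.0 CPM in Healthy, 399.7 ± 56.7 CPM in PanIN and 425 ± 7.09 CPM in Tumor (SD, n = 3 each), so the order of PanIN and Tumor depended on the scale. Pmaip1 made up 34.2% to 59.0% of the TPM sum. The 2 effectors had 222 ± 93.2 TPM in Healthy, 294 ± 59.8 TPM in PanIN and 335 ± 60.3 TPM in Tumor. The 8 anti-apoptotic genes had 679 ± 163 TPM in Healthy, 854 ± 207 TPM in PanIN and 1226 ± 163 TPM in Tumor. Set against the anti-apoptotic sum, Bcl2l11 amounted to 0.810% to 1.12% for Healthy, 1.29% to 1.84% for PanIN and 0.742% to 0.836% for Tumor. On this ratio of Bcl2l11 alone, PanIN lay above the other 2 stages without overlap, and Tumor libraries reached just into the Healthy range from below. How many of all genes were so arranged was not computed. The BH3-only sum, set against the anti-apoptotic sum, was arranged otherwise. PanIN and Healthy overlapped, with 78.8 TPM against 648 in Healthy 2 and 122 TPM against 1014 in PanIN 1. Every Tumor library was lower on this ratio than every Healthy and PanIN library. The Tumor values were 87.1 against 1314, 94.2 against 1038 and 114 against 1325 TPM. Nearest to them was Healthy 1, with 83.9 against 856 TPM. The share of all genes in this arrangement was not computed either. The largest parts of the anti-apoptotic sum were Bcl2a1b, Bcl2a1d and Bcl2a1a, with means of 371, 232 and 198 TPM. These sums compare RNA and say nothing of protein.

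Levels per gene rest on how reads were divided among transcripts. For Bax, the short Bax-204 (222 bases, 74 coded residues, without the BH3 core) took on average 56.8% of the TPM but 4.39% of the estimated counts, since TPM divides by length. Transcripts with the core held 25.6% to 57.2% of Bax TPM and 85.9% to 90.7% of its counts. Taken alone they had 66.5 ± 17.1 TPM in Healthy, 90.4 ± 9.30 TPM in PanIN and 79.0 ± 5.21 TPM in Tumor (SD, n = 3 each), and they still exceeded Bak1 in 9 of 9 libraries. That set includes another short transcript, Bax-202 (343 bases), with a mean of 36.6 TPM. The longer Bax-201, Bax-203 and Bax-205 averaged 34.2, 3.24 and 4.66 TPM, against 61.0 TPM for Bak1. The lead of Bax over Bak1 in mean TPM therefore depended on its short transcripts. In CPM, which does not divide by length, Bak1 averaged 151 and Bax 77.1. Of the 31-base words of Bax-204, 12% also occur in Gm45808, an overlapping gene on the same strand, so its reads cannot be placed with certainty. The shares of Bak1 also differed between TPM and counts: Bak1-203 (902 bases) led with 46.4% of TPM and 7.95% of counts, while Bak1-201 (1974 bases), annotated as a target of nonsense-mediated decay, held 43.6% of TPM and 71.2% of counts. In both genes the gap between TPM and counts was wider than the annotated lengths alone would give.

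Bcl2l11 RNA was assigned mostly to Bcl2l11-205 (5036 bases, 196 coded residues), with 62.0% to 92.1% of TPM and 89.8% to 97.3% of counts. Bcl2l11-202, which lacks the core, had 0.496, 0.346 and 0.0910 TPM in Healthy, 1.20, 1.24 and 1.11 TPM in PanIN and 1.33, 0.466 and 0.851 TPM in Tumor. Its PanIN libraries lay above its Healthy libraries, and Tumor 2 lay within the Healthy range. The share of all transcripts so arranged was not computed. In TPM summed to genes, 14.4% of all genes were higher in every PanIN library than in every Healthy library. For Bmf, Healthy 2 stood apart: Bmf-203, a non-coding transcript of 374 bases, had 5.79 TPM there, 0.241 in PanIN 2 and 0 in the other 7, which raised the gene's TPM in Healthy 2 to 11.8 while 95.2% of its counts stayed with Bmf-201.

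Bid showed the one stage pattern in transcript use that stood near the threshold. Its leading transcript, Bid-201, held 90.6%, 94.2% and 81.4% of Bid TPM in the Healthy libraries, 70.0%, 76.7% and 74.8% in the PanIN libraries and 93.8%, 92.0% and 99.4% in the Tumor libraries. All PanIN libraries lay below the other 6. The exact permutation test of the F statistic over all assignments of the 9 libraries to 3 stages gave p = 0.0107, and p = 0.0964 after Benjamini-Hochberg adjustment over the 9 genes with more than 1 transcript, so it did not pass, and neither did any other gene. The retained-intron transcript Bid-205 had 0.624, 1.65 and 3.09 TPM in PanIN, that is 13.9, 34.6 and 71.5 estimated counts, and was listed at 0 in all Tumor and Healthy libraries. By counts in place of TPM the Bid-201 share was 97.5% ± 2.81 for Healthy, 89.5% ± 9.89 for PanIN and 95.5% ± 3.82 for Tumor (SD, n = 3 each; exact permutation p = 0.339), and the groups overlapped. Among protein-coding transcripts alone, Bid-201 held on average 99.7% of TPM in Healthy, 97.4% in PanIN and 99.1% in Tumor (exact permutation p = 0.679). The PanIN pattern was thus seen only with the non-coding and decay-annotated transcripts included. Bid overlaps Bcl2l13 by 913 bases on the opposite strand and Gm44260 by 2094 bases on the same strand.

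**Figure D5:**
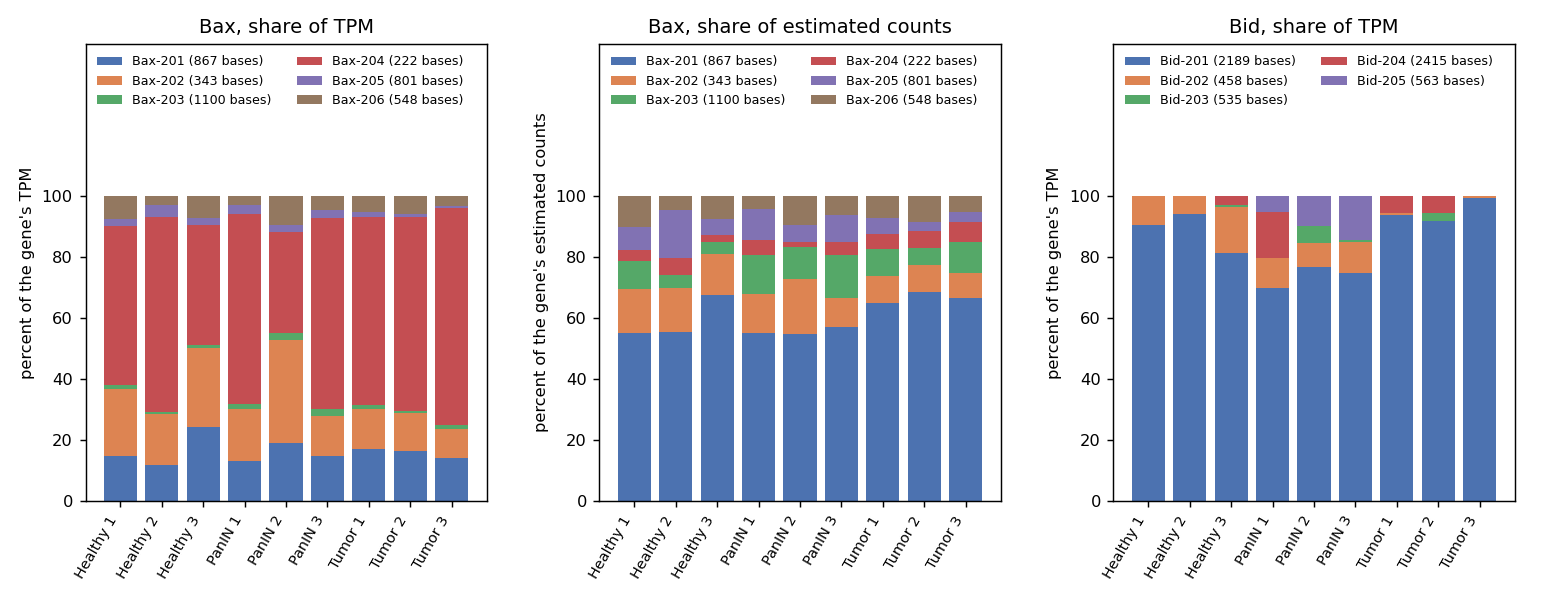
Share of each annotated transcript (colours, length in bases) in the TPM of Bax, the estimated counts of Bax and the TPM of Bid (y axes, percent) in each library (x axes). Bax-204 fills much of the Bax TPM bars and little of the count bars, and Bid-201 is below 80% in the 3 PanIN libraries alone.

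Because Healthy 2 had so little Ccr7 and Fscn1 (genes of mature, migrating dendritic cells), each gene was also set against the mean log2 CPM of those 2 genes over the 9 libraries. None of the 10 relations passed Benjamini-Hochberg adjustment. Pmaip1 came nearest, with Pearson r = 0.67 (exact permutation p = 0.0537, adjusted p = 0.310) and Spearman rho = 0.80 (exact permutation p = 0.0138, adjusted p = 0.138), and r fell to 0.38 without Healthy 2 and Healthy 3, the libraries farthest from the median. Those 2 were chosen by their Ccr7 and Fscn1 level, so leaving them out narrows its range, which can by itself lower r. The removal therefore does not show whether the relation rests on them. Within stages r of Pmaip1 was 0.36. Bid went the other way, with r = -0.59 (exact permutation p = 0.0930, adjusted p = 0.310), -0.59 without the same 2 libraries, and -0.88 within stages. Bak1 and Bax had r of -0.03 and 0.08 over all libraries, but -0.79 and -0.64 within stages, where Healthy 2 had the lowest Ccr7 level and the most effector RNA of its stage. Without Healthy 2 and Healthy 3, r over the remaining libraries was 0.29 for Bak1 and 0.39 for Bax, of the opposite sign. The within-stage values were not tested.

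Among the partners of these genes, no gene of the 5 lists passed edgeR's adjusted test in any comparison. Of 7 tested anti-apoptotic genes, 3 had an unadjusted p under 0.05 and were higher in Tumor than in Healthy (Bcl2a1b, Bcl2a1d and Bcl2l1), where 6.82% of all genes were, with 6 of 7 positive and a median log2 fold change of 0.64; in PanIN against Healthy 0 of 7 had such a p. In Tumor against PanIN, 3 of 7 did (Bcl2a1b, Bcl2a1d and Bcl2a1a), all higher in Tumor, where 2.02% of all genes were. Bcl2a1b, the most abundant, had 231 ± 62.9 CPM in Healthy, 241 ± 96.3 CPM in PanIN and 501 ± 108 CPM in Tumor (SD, n = 3 each). Bcl2a1a had 148 ± 44.5 CPM in Healthy, 125 ± 47.0 CPM in PanIN and 231 ± 33.1 CPM in Tumor, and the log2 fold change of Bcl2a1d in Tumor against Healthy was 0.90 (edgeR adjusted p = 0.168). These 3 are near-identical copies whose reads the quantifier divides by a model, so their separate values are uncertain. Mcl1, the main partner of Noxa, had 468 ± 110.4 CPM in Healthy, 620.1 ± 76.2 CPM in PanIN and 633 ± 74.6 CPM in Tumor, with log2 fold changes against Healthy of 0.41 in PanIN (edgeR adjusted p = 0.634) and 0.44 in Tumor (adjusted p = 0.416). Mcl1, Bcl2l1, Casp8, Cycs, Ddit3, Usp9x, Foxo3, Bnip3 and Bcl2l12 are not among the 3 most abundant genes of their lists and were named after their values were seen.

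Upstream, 1 of 11 regulators was higher in Tumor than in Healthy at an unadjusted p under 0.05 (Ddit3, log2 fold change 0.77) and 3 were lower (Trp53, Usp9x and Foxo3), where 6.82% of all genes were higher and 11% lower at such a p. Trp53, the gene of p53, which drives Bbc3 and Pmaip1 in stressed cells, had 104 ± 45.7 CPM in Healthy, 71.0 ± 28.7 CPM in PanIN and 50.4 ± 4.77 CPM in Tumor, a log2 fold change of -1.04 in Tumor against Healthy (edgeR adjusted p = 0.168). Foxo3, a transcription factor known to activate Bcl2l11, had 52.0 ± 6.40 CPM in Healthy, 41.9 ± 3.21 CPM in PanIN and 31.1 ± 0.461 CPM in Tumor (-0.74 in Tumor against Healthy, edgeR adjusted p = 0.168). Huwe1, a ubiquitin ligase of Mcl1, and Jun, a subunit of the AP-1 transcription factor, had log2 fold changes of -0.22 and -0.04 in Tumor against Healthy. The median log2 fold change of the 11 was -0.09 in PanIN and -0.22 in Tumor, each against Healthy.

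Downstream of the mitochondrion, 1 of 11 genes, Htra2, had an unadjusted p under 0.05 in PanIN against Healthy and was higher, where 4.82% of all genes were. Htra2, a protease released from mitochondria, had 65.8 ± 25.4 CPM in Healthy, 109 ± 17.4 CPM in PanIN and 145 ± 32.3 CPM in Tumor, with log2 fold changes against Healthy of 0.73 in PanIN (edgeR adjusted p = 0.457) and 1.14 in Tumor (adjusted p = 0.168). Diablo, an inhibitor of IAP proteins, had 37.1 ± 9.79 CPM in Healthy, 39.2 ± 2.48 CPM in PanIN and 49.0 ± 1.05 CPM in Tumor. Cycs, cytochrome c, had a log2 fold change of 0.74 in Tumor against PanIN (edgeR unadjusted p = 0.0188), which did not pass the adjusted test. None of the 9 genes of proteins that hold family members (genes of 14-3-3 proteins, dynein light chains and Vdac2) had an unadjusted p under 0.05 in any comparison; the most abundant, Ywhaz, Ywhae and Ywhah, had log2 fold changes of 0.04, 0.11 and 0.16 in Tumor against Healthy. Among 8 other Bcl2-related genes, 2 had an unadjusted p under 0.05 and were higher in Tumor than in Healthy, Bcl2l14 and Bcl2l12, where 6.82% of all genes were. In PanIN against Healthy the same 2 were higher and 1, Bnip3, was lower at such a p, where 4.82% of all genes were higher and 5.65% lower. Bcl2l14 had 139.6 ± 71.5 CPM in Healthy, 244 ± 29.0 CPM in PanIN and 350.1 ± 60.3 CPM in Tumor, with log2 fold changes against Healthy of 0.80 in PanIN (edgeR adjusted p = 0.457) and 1.33 in Tumor (adjusted p = 0.168). The autophagy gene Becn1 and the mitophagy receptor Bnip3l had log2 fold changes of 0.38 and -0.28 in Tumor against Healthy.

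The genes whose log2 CPM followed Bcl2l11 most closely over the 9 libraries, of 12004 compared, included Rbm38 (Pearson r = 0.94) and Fam126a (0.94). Those closest to Bax were Pdap1 (0.99), Spag7 (0.98) and Acot8 (0.98). Pdap1 had 48.9, 65.4 and 38.9 CPM in Healthy, 55.8, 50.3 and 56.4 CPM in PanIN and 72.3, 68.6 and 60.5 CPM in Tumor, which repeats the high Healthy 2 and low Healthy 3 of Bax. All points share their library and its depth, and these correlations are descriptions.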

How the data were processed

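RNA of 9 cDC1 libraries was measured. Per the submitters' processing notes the values were made with Salmon on mm10, while the names of the deposited tables mention sailfish; the sources used here name no version, setting or use of strand. The authors deposited estimated counts per transcript, not normalized, and TPM per transcript. Of 136288 transcripts, 136176 were matched by identifier to GENCODE M21 and summed to 53458 genes; the 112 others were left out. Rounded counts were tested with edgeR 4.0.16 (R 4.3.3): filterByExpr defaults (minimum count 10, minimum total 15), TMM factors of 0.83 to 1.192, 1 quasi-likelihood fit over 9 libraries, Benjamini-Hochberg adjustment over 24133 genes at 0.05. The common biological coefficient of variation was 56.5%. CPM serves comparisons between libraries and TPM those between genes. Alternatives used DESeq2 1.42.0, limma 3.58.1, other filters, scales and libraries. Permuting 3 libraries against 3 gives no p under 0.1. The 10 genes, gene lists, markers and tests were chosen with earlier results of these data known. Each list's 3 genes with the highest mean TPM were named. The BH3 core of Pmaip1 and a few genes that these rules name are not reported here.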

Additional observations from a re-analysis of the deposited data

How the results depend on the processing

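Of 596 recomputed fold changes of the 10 genes, 542 kept their direction and their side of the threshold, 6 passed it where the reported fit did not, and 48 changed sign, 46 of them where the reported size was under 0.25. The causes were not tested. Depth limits Bik, at 1 to 47 estimated counts a library. No paired analysis was possible because the labels carry no replicate numbers; the shared title code was tried as a term instead.

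Members called, 0 in every reported comparison, were 1 (PanIN against Healthy), 2 (Tumor against Healthy) and 2 (any difference) with limma-voom. Leaving out 1 library at a time gave 0 to 3 in Tumor against Healthy and 0 to 1 for any difference, the highest without Healthy 2, and 0 in the other comparisons. Genes called in PanIN against Healthy (0 reported) were 196 with DESeq2, 123 with no filter, 3409 with limma-voom, 4 on log2(TPM + 1), 3 on log2(TPM + 0.1), 1 in the 6 libraries outside the title code, 3 without Healthy 2 and 3, and 0 to 6 leaving out 1 library. In Tumor against Healthy (6) they were 1607 with DESeq2, 1041 with no filter, 3 with at least 50 counts in 3 libraries, 1986 with limma-voom, and 2 to 2177 leaving out 1 library, the highest without Healthy 2. In Tumor against PanIN (3) they were 30 with DESeq2, 33 with no filter, 1 with at least 50 counts, 1 with the code term, 0 with only those groups, and 1 to 7 leaving out 1 library. For any difference (5) they were 1043 with DESeq2, 855 with no filter, 3248 with limma-voom, 8 on log2(TPM + 1), 3 with the code term, and 0 to 1360 leaving out 1 library.

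Signs changed as follows. In PanIN against Healthy, Bbc3 (0.00 reported) was -0.021 with DESeq2, -0.022 with RLE factors, -0.017 with no filter, -0.0017 with at least 50 counts, -0.14 with limma-voom and -0.19 without Healthy 2 and 3. Bid (-0.01) was 0.0012 with at least 50 counts, 0.36 with limma-voom, 0.52 and 0.55 on log2(TPM + 1) and log2(TPM + 0.1), 0.015 with the code term and 0.41 without Healthy 2 and 3. On the same TPM scales Bad (-0.20) was 0.25 and 0.27. In Tumor against Healthy those scales gave -0.0185 and -0.0191 for Bid (0.03), and -0.26 and -0.28 for Bmf (0.20). In Tumor against PanIN they gave -0.28 and -0.29 for Pmaip1 (0.07), -0.0148 and -0.0149 for Bak1 (0.36), -0.53 and -0.57 for Bid (0.04), and -0.34 and -0.38 for Bmf (0.15). Bcl2l11 (-0.04) was 0.065 in the 6 libraries outside the code.

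Leaving out 1 library at a time, the PanIN against Healthy value ran from -0.16 to 0.11 for Bbc3, -0.026 to 0.44 for Bax, -0.048 to 0.41 for Bak1, -0.22 to 0.52 for Bid, -0.18 to 0.28 for Bmf and -0.71 to 1.40 for Bik. That of Bid ran from -0.20 to 0.56 in Tumor against Healthy. In Tumor against PanIN the value ran from -0.23 to 0.10 for Bcl2l11, -0.087 to 0.27 for Pmaip1, -0.19 to 0.23 for Bid and -0.058 to 0.38 for Bmf.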
